A study of Mus musculus with 16 samples.

Results

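The genes described here encode the subunits of the proteasome, its activators, its inhibitor and its assembly chaperones. They were chosen by name from the probes that carry a single gene symbol: every gene whose symbol is Psma, Psmb, Psmc, Psmd, Psme, Psmf or Psmg followed by a digit was taken, and where a gene had several probes the one with the highest mean stood for it. The rule found 50 genes, on 56 of 21789 single-symbol probes, among 19938 genes in all. All 50 passed the filter on dim probes and were tested together with the other genes, 16427 in total. Of these members, 14 are the constitutive subunits of the 20S core, 3 are the immunoproteasome subunits, 17 are subunits of the 19S regulator, 7 are assembly chaperones and 5 are activators or the inhibitor. Another 2, Psma8 and Psmb11, are core subunits known from testis and thymus, and the remaining 2, Psmc3ip and Psme3ip1, carry the name of a proteasome gene they bind and are not subunits.

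The proteasome is the protease that degrades proteins tagged with ubiquitin. Its 20S core is a barrel of stacked rings, in which alpha subunits form the gate and beta subunits hold the cutting sites, and the 19S regulator caps the barrel, binds ubiquitin, and unfolds the substrate with a ring of ATPases. In lymphocytes, and in other cells under interferon-gamma, the cutting subunits Psmb5, Psmb6 and Psmb7 can be replaced during assembly by Psmb8, Psmb9 and Psmb10. The particle that results is called the immunoproteasome, and it is known for making peptides that fit MHC class I molecules.

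Gene expression was measured on 16 arrays of naive CD4+ T cells from B6 mice, sorted as CD4+CD62LhiCD25- from spleen and lymph nodes. The 4 groups were KO_CD3CD28, KO_CD3, WT_CD3CD28 and WT_CD3, with 4 arrays each. KO cells were Dec1 knock-out, that is, they lacked the helix-loop-helix factor whose gene is now called Bhlhe40, and WT cells were wild type. Culture lasted 24 h in every group, at a density of 1000000 cells in each ml and with serum at 10%, on latex beads that carried anti-CD3 alone (CD3), which engages the T cell receptor, or anti-CD3 together with anti-CD28 (CD3CD28), which also engages a costimulatory receptor. The labels give neither the way the DEC1 allele was made nor the animals behind each replicate number, so the p-values measure the spread between these samples, which may be technical.

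All values are log2 signals, and a difference of 1 on this scale is a 2-fold difference. The labels were checked with Bhlhe40, whose probe averaged 5.88 ± 0.14 in KO_CD3CD28, against 9.51 ± 0.71 in WT_CD3CD28, and 5.53 ± 0.32 in KO_CD3, against 7.56 ± 0.42 in WT_CD3 (SD, n = 4 each). The probes of the T cell genes Cd3d, Cd3e and Cd3g and of the sort marker Cd4 stood at or above the 92.6th percentile of every array. Deviations from the group means split the replicate numbers into 1 and 2 on one side and 3 and 4 on the other along their first component, which held 39.6% of the variance. WT_CD3CD28 replicate 4 lay farthest out on it and was the lowest of its group for many proteasome genes, so results that rest on it are given with and without it.

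Adding anti-CD28 went with higher signals of 37 proteasome genes in KO cells and of 22 in WT cells. In KO cells 37 of the 50 genes rose and 1, Psmb11, fell (limma, Benjamini-Hochberg adjusted p under 0.05), where 20.4% of all tested genes rose and 17.6% fell. The median difference of the 50 genes was 0.51, and that of all tested genes was -0.063. In WT cells 22 genes rose and none fell by the same test, where 16% of all tested genes rose and 13% fell. The median difference there was 0.27, against -0.030 for all tested genes. All 22 genes that rose in WT cells also rose in KO cells, which is 100% of the WT list and 59.5% of the KO list. For all tested genes that rose, the shared ones made up 91.9% of the WT list and 72% of the KO list. Without WT_CD3CD28 replicate 4 the WT count was 27 and the WT median 0.32, against -0.044 for all tested genes. The 16% above belongs to the fit on all 16 arrays, and the count of 27 stands without a share of its own. Whether more of a transcript per cell or more of the cells that carry it lies behind a higher signal cannot be told apart in bulk RNA.

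**Figure D1:**
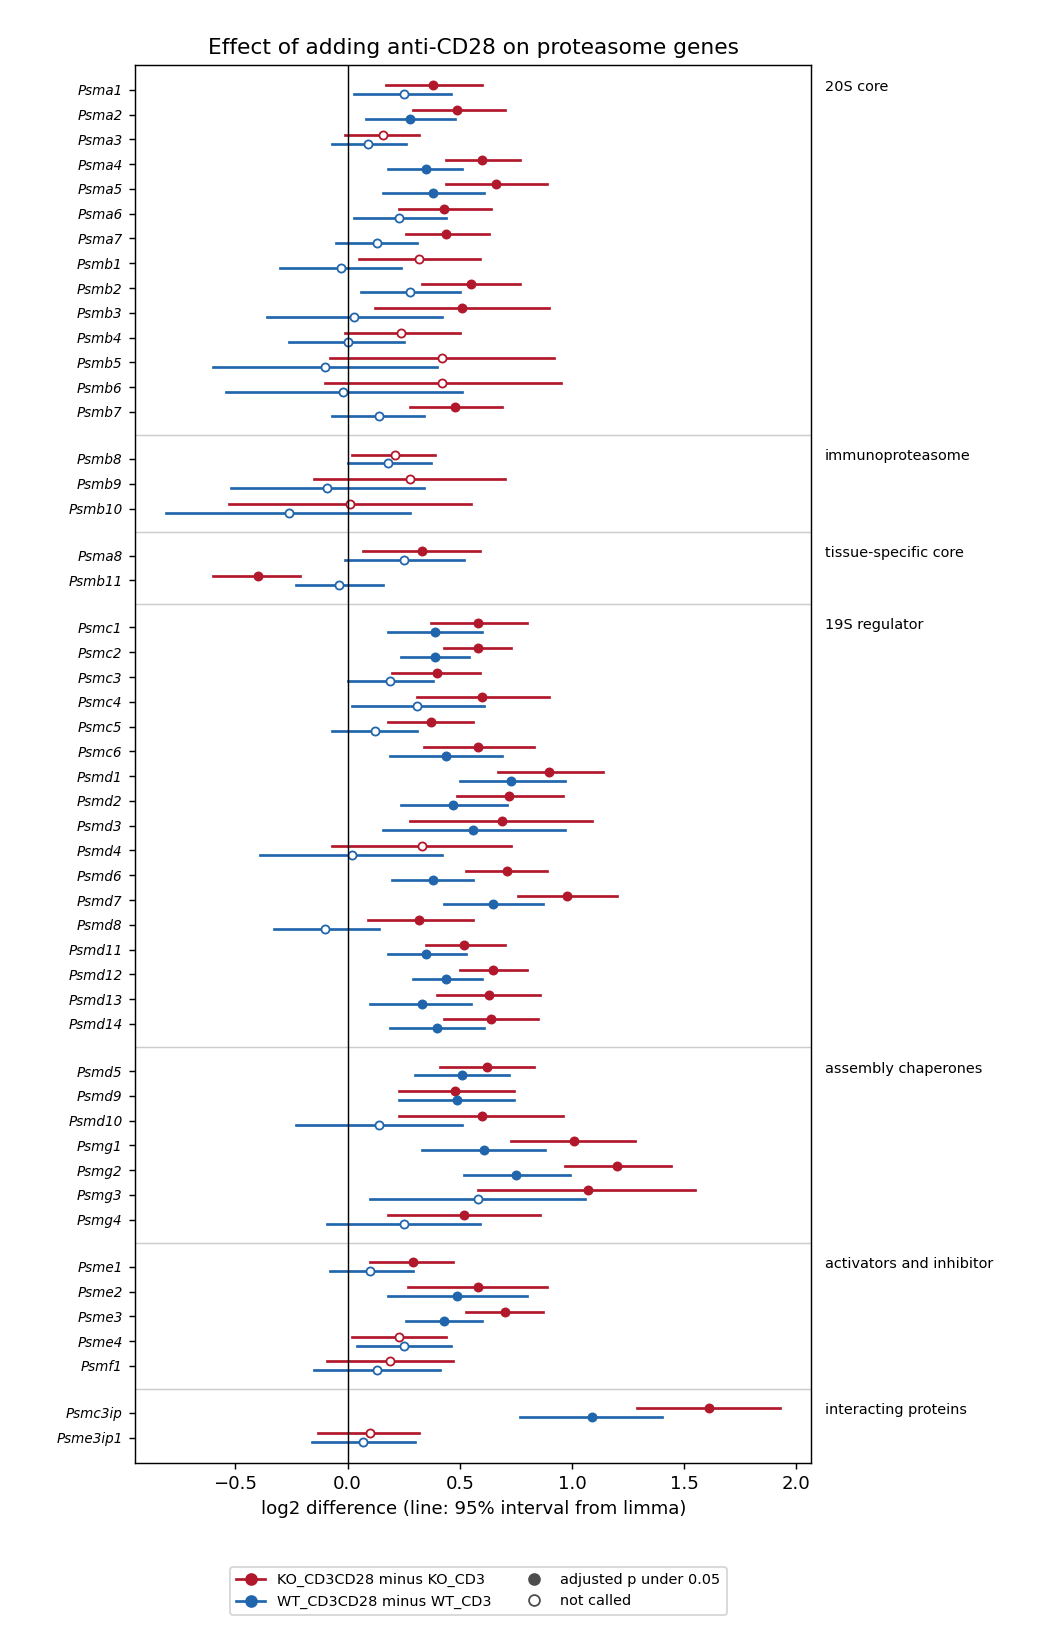
Log2 difference between anti-CD3 plus anti-CD28 and anti-CD3 alone for each of the 50 genes, in KO cells (red) and WT cells (blue). Lines are 95% intervals from limma and filled points have an adjusted p under 0.05. Filled red points number 38 and filled blue points 22, and the 20S chaperones Psmg1, Psmg2 and Psmg3 lie at 1.01 or above in KO cells.

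By class, the counts in KO cells and in WT cells were as follows, where 20.4% and 16% of all tested genes rose. Of the 17 subunits of the 19S regulator, 16 rose in KO cells and 12 in WT cells, with medians of 0.60 and 0.39. Of the 14 constitutive core subunits, 9 rose in KO cells and 3 in WT cells, with medians of 0.44 and 0.13. All 7 assembly chaperones rose in KO cells and 4 did in WT cells, with medians of 0.62 and 0.51. Among the activators and the inhibitor, 3 of 5 rose in KO cells and 2 of 5 in WT cells, with medians of 0.29 and 0.25. None of the 3 immunoproteasome subunits was called by limma in either genotype, at medians of 0.21 in KO cells and -0.09 in WT cells, and 1 of them had an unadjusted p under 0.05 in KO cells (23.1% of all tested genes, upward) and 0 had one in WT cells (19.6%). Without WT_CD3CD28 replicate 4 the WT counts were 14 of 17 regulator subunits, 4 of 14 core subunits, 6 of 7 chaperones, 2 of 5 activators and 0 of 3 immunoproteasome subunits, and the medians of the core and of the immunoproteasome subunits were 0.26 and 0.16. Quantile normalization of the arrays put the immunoproteasome median at 0.01 in KO cells and -0.21 in WT cells. It also lowered the medians of the regulator, to 0.40 and 0.28, of the core, to 0.30 and 0.11, and of the chaperones, to 0.50 and 0.49. For all 50 genes the medians were then 0.37 and 0.20, against 0.025 and 0.028 for all tested genes, with 31 genes called higher in KO cells and 21 in WT cells. The shares of 20.4% and 16% belong to the fit on all arrays as deposited. Counts without replicate 4 of WT_CD3CD28 or after quantile normalization stand without a share of their own. The counts and medians describe the classes, and no test was run between them.

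The DNA upstream of the genes was read to see what the members share beyond their names. RefSeq's windows of the 250 bases before each transcription start (mouse build GRCm38.p6) were at hand for 42 of the 50 genes, in 46 windows, and were searched on both strands for 6 short motifs. The windows below belong to the gene with the largest mean rise over the genotypes, among genes with a window that were called in both, within the assembly chaperones, the 19S regulator, the 20S core and the activators, and to the 3 immunoproteasome genes. They run 5′ to 3′ on the gene's own strand. Capitals mark the letters that match a motif. They lie at chr16:95990961-95991210 (minus strand, Psmg1), chr1:86064369-86064618 (plus, Psmd1), chr3:108256676-108256925 (plus, Psma5), chr11:101315963-101316212 (plus, Psme3), chr17:34197945-34198194 (plus, Psmb8), chr17:34187331-34187580 (minus, Psmb9) and chr8:105938393-105938642 (minus, Psmb10).
Psmg1: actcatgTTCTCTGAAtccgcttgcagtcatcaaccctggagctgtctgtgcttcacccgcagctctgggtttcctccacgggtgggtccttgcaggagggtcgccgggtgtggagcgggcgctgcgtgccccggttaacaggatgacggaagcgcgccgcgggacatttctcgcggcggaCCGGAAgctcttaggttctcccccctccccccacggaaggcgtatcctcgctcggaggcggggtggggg
Psmd1: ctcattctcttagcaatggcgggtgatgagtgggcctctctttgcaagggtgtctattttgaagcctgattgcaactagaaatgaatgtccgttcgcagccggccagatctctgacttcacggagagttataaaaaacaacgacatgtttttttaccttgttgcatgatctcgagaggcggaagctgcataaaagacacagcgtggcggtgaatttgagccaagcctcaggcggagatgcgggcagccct
Psma5: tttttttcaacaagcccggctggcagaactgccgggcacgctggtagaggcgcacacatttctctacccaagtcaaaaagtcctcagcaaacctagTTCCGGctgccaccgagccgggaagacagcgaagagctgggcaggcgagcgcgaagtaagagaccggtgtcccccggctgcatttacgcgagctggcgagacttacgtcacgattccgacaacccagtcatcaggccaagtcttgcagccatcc
Psme3: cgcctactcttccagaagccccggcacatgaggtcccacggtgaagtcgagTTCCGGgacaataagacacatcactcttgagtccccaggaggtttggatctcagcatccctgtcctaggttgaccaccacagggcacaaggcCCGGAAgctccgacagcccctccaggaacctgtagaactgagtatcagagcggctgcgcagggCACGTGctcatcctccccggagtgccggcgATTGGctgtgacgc
Psmb8: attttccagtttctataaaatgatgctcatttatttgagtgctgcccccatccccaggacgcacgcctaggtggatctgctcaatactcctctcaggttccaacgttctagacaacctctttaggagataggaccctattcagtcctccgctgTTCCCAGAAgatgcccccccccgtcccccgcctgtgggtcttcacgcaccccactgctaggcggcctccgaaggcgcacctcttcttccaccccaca
Psmb9: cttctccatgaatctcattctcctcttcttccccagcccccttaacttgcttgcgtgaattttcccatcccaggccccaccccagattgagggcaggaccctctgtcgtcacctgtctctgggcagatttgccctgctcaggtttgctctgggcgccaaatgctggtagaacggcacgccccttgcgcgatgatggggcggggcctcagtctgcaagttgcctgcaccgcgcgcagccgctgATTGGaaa
Psmb10: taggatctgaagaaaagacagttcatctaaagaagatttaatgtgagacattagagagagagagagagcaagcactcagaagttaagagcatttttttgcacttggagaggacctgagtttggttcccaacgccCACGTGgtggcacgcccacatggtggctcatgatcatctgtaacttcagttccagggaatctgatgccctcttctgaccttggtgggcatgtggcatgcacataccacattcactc

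The ETS motif, CCGGAA, was the one most often matched upstream of these genes. It lay in 41.3% of the 46 member windows, which belong to 18 of the 42 genes, against 17.9% of the windows of all tested genes and 12% of all RefSeq windows. Psmg1, Psma5 and Psme3 hold it, Psme3 at 2 places, and none of the 3 immunoproteasome windows does. The NF-Y box, CCAAT, lay in 34.8% of member windows and in 34.1% of those of all tested genes, Psme3 and Psmb9 among them. The E-box CACGTG, known as letters that DEC1 binds, lay in 10.9% of member windows, against 7.6% for all tested genes, and those genes were Psma4, Psmb10, Psmd9, Psme3 and Psme3ip1. The antioxidant response element TGACNNNGC, known as the site of NFE2L1, the factor that induces proteasome genes when the protease is blocked, lay in 10.9% of member windows, against 11.4% for all tested genes.

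**Figure D2:**
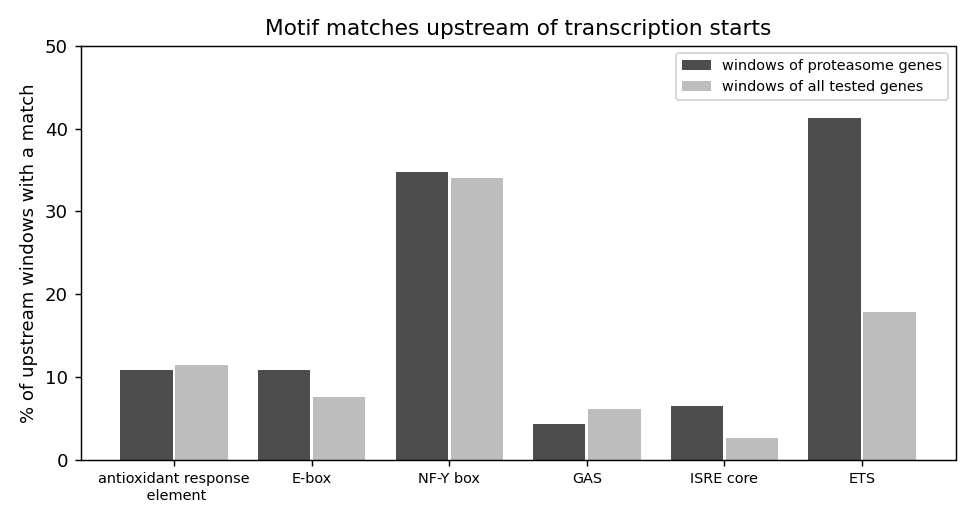
Share of upstream windows with at least 1 match to each motif, for the 46 windows of proteasome genes (dark bars) and the windows of all tested genes (light bars). The bars differ most for the ETS motif, at 41.3% and 17.9%.

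Motifs of interferon signalling lay in few member windows, 2 of 46 for the first below and 3 of 46 for the second. The GAS element, TTCNNNGAA, known from genes that respond to interferon-gamma, lay in 4.35% of member windows, against 6.15% for all tested genes, and the genes were Psmb8 and Psmg1. The core of the interferon-stimulated response element, written GAAA, any 2 bases and GAAA, lay in 6.52%, against 2.61%, upstream of Psmb3, Psmd4 and Psmd9. The window of Psmb9 shares 225 bases with that of its neighbour Tap1, which lies on the opposite strand. Such overlaps were also found for Psme3ip1 (214 bases, with Rspry1), Psma2 (204, Mrpl32), Psmd10 (195, Atg4a), Psmc5 (100, Ftsj3), Psmd13 (84, Sirt3) and Psma7 (18, Ss18l1). The window of Psmd1 matched none of the 6 motifs. A match describes letters in these windows and is not evidence of binding.

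The largest differences among the subunits and chaperones in KO cells were those of Psmg1, Psmg2 and Psmg3, chaperones that bind alpha subunits and guide their ring together. Psmg2, the partner of Psmg1 in the first chaperone pair, read 10.65, 10.65, 10.61 and 10.63 in KO_CD3CD28, against 9.37, 9.17, 9.57 and 9.62 in KO_CD3. All 4 arrays with anti-CD28 lay above all 4 without it, and the difference was 1.20 ± 0.11 (SE), a 2.30-fold higher signal (limma, adjusted p = 2.64e-07). In WT cells Psmg2 read 10.64, 10.59, 10.48 and 10.28 in WT_CD3CD28, against 9.86, 9.59, 9.93 and 9.59 in WT_CD3. Those groups did not overlap either, and the difference was 0.75 ± 0.11 (limma, adjusted p = 6.54e-05). Psmg2 lies at chr18:67641587-67654181.

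Psmg1, the other member of the pair, read 10.50, 10.45, 10.38 and 10.43 in KO_CD3CD28, against 9.42, 9.26, 9.58 and 9.47 in KO_CD3. The groups stood apart by a difference of 1.01 ± 0.13 (limma, adjusted p = 1.05e-05). In WT cells it read 10.54, 10.56, 10.38 and 9.89 in WT_CD3CD28, against 9.96, 9.65, 9.81 and 9.52 in WT_CD3. Replicate 4 of WT_CD3CD28 fell below replicate 1 of WT_CD3, so the groups overlapped, while the difference of 0.61 ± 0.13 passed the test (limma, adjusted p = 0.00177).

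Psmg3 and Psmg4 form the second chaperone pair, which works on the same ring. Psmg3 read 9.35, 9.35, 8.72 and 8.76 in KO_CD3CD28, against 7.85, 7.94, 8.21 and 7.91 in KO_CD3, a difference of 1.07 ± 0.23 between groups that did not overlap (limma, adjusted p = 0.0013). In WT cells it read 9.30, 9.50, 9.11 and 8.09 in WT_CD3CD28, against 8.45, 8.48, 8.42 and 8.33 in WT_CD3. The 3 high arrays stood above all of WT_CD3 and replicate 4 below it, and the difference of 0.58 ± 0.23 was not called (limma, adjusted p = 0.0674). With the replicate number as a block the adjusted p for Psmg3 in WT cells was 0.0246, in a fit that called 18.8% of all tested genes higher, and without WT_CD3CD28 replicate 4 the difference was 0.88 (adjusted p = 0.000375). Psmg4 differed by 0.52 ± 0.16 in KO cells (limma, adjusted p = 0.0177) and by 0.25 ± 0.16 in WT cells (limma, adjusted p = 0.288), where the value without replicate 4 of WT_CD3CD28 was 0.43 (adjusted p = 0.0229).

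The chaperones of the 19S base, Psmd5, Psmd9 and Psmd10, hold the ATPases until the ring closes. Psmd5 rose by 0.62 in KO cells and by 0.51 in WT cells, and Psmd9 by 0.48 and by 0.49 (limma, adjusted p from 0.0001 to 0.00485). Psmd10, also known as gankyrin, read 10.80, 10.66, 10.85 and 10.78 in KO_CD3CD28, against 9.82, 9.67, 10.53 and 10.70 in KO_CD3. The first 2 arrays of KO_CD3 lay low and replicate 4 lay inside the range of KO_CD3CD28, so the groups overlapped at a difference of 0.60 ± 0.17 (limma, adjusted p = 0.0116). In WT cells its difference was 0.14 ± 0.17 (limma, adjusted p = 0.609).

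**Figure D3:**
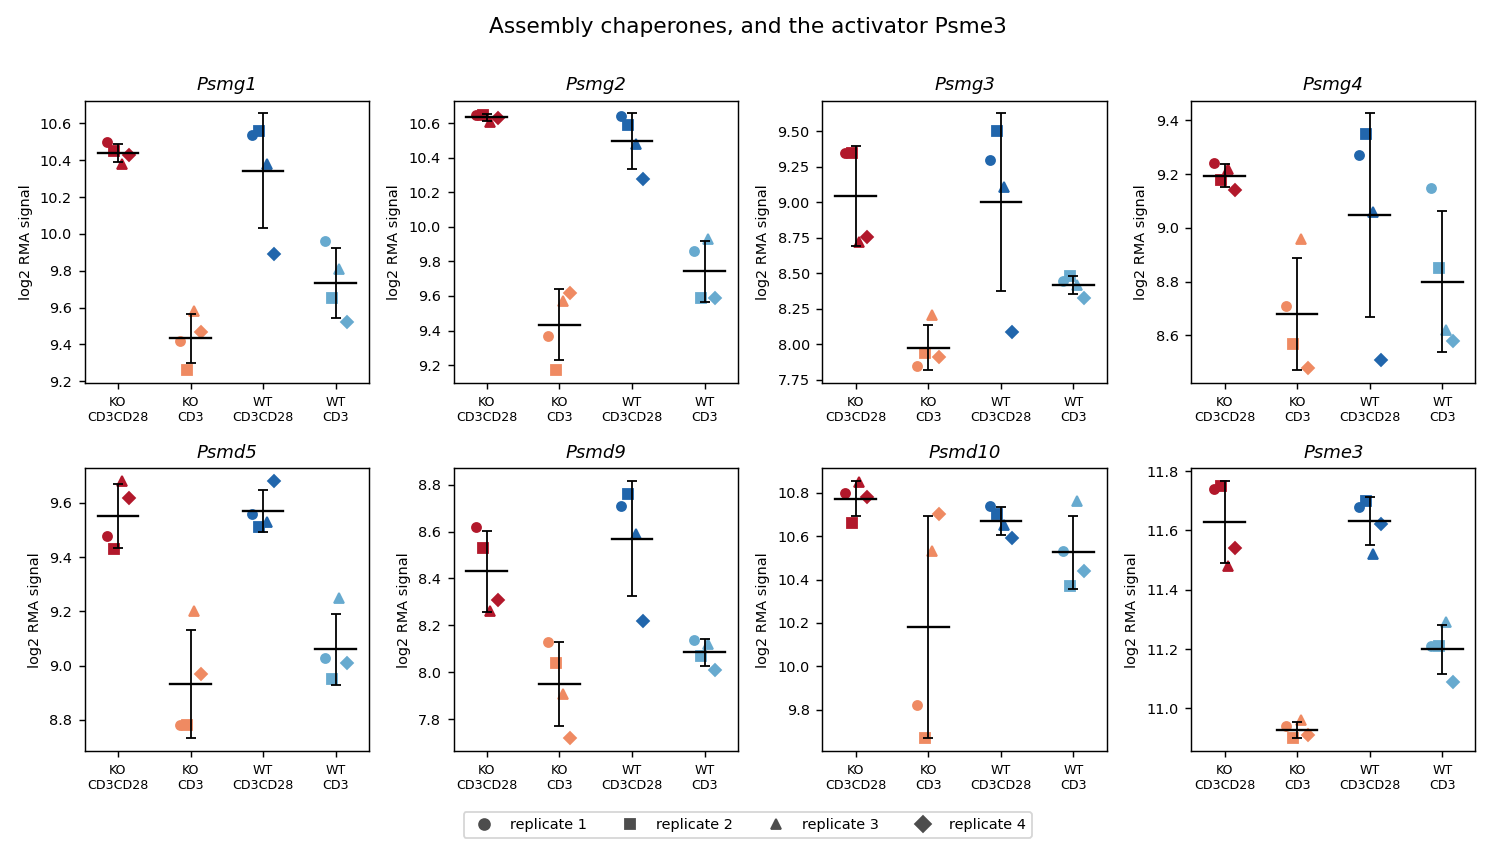
Log2 signal of the 7 assembly chaperones and of the activator gene Psme3 on each of the 16 arrays, with KO_CD3CD28, KO_CD3, WT_CD3CD28 and WT_CD3 from left to right; bars are the group mean and SD (n = 4) and the marker shape is the replicate number. Psmg2 lies between 10.61 and 10.65 in KO_CD3CD28, above the 9.17 to 9.62 of KO_CD3, and replicate 4 of WT_CD3CD28 is the lowest of its group for Psmg1, Psmg2, Psmg3 and Psmg4.

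Within the 19S regulator the ATPases Psmc1 to Psmc6 all rose in KO cells, by 0.37 to 0.60, and 3 of them, Psmc1, Psmc2 and Psmc6, rose in WT cells. Of the 11 other subunits 10 rose in KO cells and 9 in WT cells. Psmd7, a structural partner of the deubiquitinase subunit Psmd14, had the largest difference of the regulator in KO cells and read 11.39, 11.43, 11.07 and 11.06 in KO_CD3CD28, against 10.20, 10.27, 10.26 and 10.29 in KO_CD3. The groups stood well apart, by 0.98 ± 0.10 (limma, adjusted p = 1.14e-06). In WT cells Psmd7 read 11.30, 11.44, 11.14 and 11.03 in WT_CD3CD28, against 10.61, 10.53, 10.71 and 10.47 in WT_CD3, a difference of 0.65 ± 0.10 (limma, adjusted p = 0.000148).

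Psmd1, one of the scaffold subunits of the regulator's base, had the largest difference of the regulator in WT cells. It read 11.57, 11.60, 11.26 and 11.64 in WT_CD3CD28, against 11.00, 10.90, 10.70 and 10.53 in WT_CD3, with no overlap and a difference of 0.73 ± 0.11 (limma, adjusted p = 8.79e-05). In KO cells it read 11.51, 11.42, 11.45 and 11.27 in KO_CD3CD28, against 10.59, 10.36, 10.65 and 10.44 in KO_CD3, a difference of 0.90 ± 0.11 (limma, adjusted p = 6.55e-06). Psmd14, the enzyme that removes ubiquitin from the substrate, rose by 0.64 in KO cells and by 0.40 in WT cells. Psmd4, a ubiquitin receptor, was the only regulator subunit not called in KO cells, at 0.33 ± 0.19 (limma, adjusted p = 0.181), and with the replicate block its adjusted p was 0.0375. Psmd8 was the only regulator subunit below 0 in WT cells, at -0.10 (limma, adjusted p = 0.58), and stood at 0.01 without WT_CD3CD28 replicate 4 (adjusted p = 0.933).

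In the core, 6 of 7 alpha genes and 3 of 7 constitutive beta genes rose in KO cells, where 20.4% of all tested genes did. In WT cells 3 of 7 and 0 of 7 rose, where 16% of all tested genes did. The alpha genes build the gate of the barrel and the beta genes its cutting chamber. The largest alpha difference was that of Psma5, which rose by 0.66 ± 0.11 in KO cells and by 0.38 ± 0.11 in WT cells (limma, adjusted p = 0.000104 and 0.0115). A second probe of Psma5 gave 0.68 in KO cells and 0.30 in WT cells, where its adjusted p was 0.0785. Psma3 had 3 probes, which gave 0.16 to 0.18 in KO cells and 0.09 to 0.12 in WT cells, and none was called. Psmb3 was called in KO cells by the brighter of its 2 probes, at 0.51 (adjusted p = 0.036), and not by the other, at 0.57 (adjusted p = 0.0665). Probes of such genes can also read near-identical copies elsewhere in the genome.

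The cutting subunits were compared as pairs, each constitutive one and the immune one that replaces it. Psmb7 was the only one of the 6 called. It read 12.20, 12.24, 12.11 and 12.20 in KO_CD3CD28, against 11.81, 11.79, 11.82 and 11.41 in KO_CD3. The groups did not overlap, and the difference was 0.48 ± 0.10 (limma, adjusted p = 0.000837). In WT cells it read 12.26, 12.23, 12.12 and 11.92 in WT_CD3CD28, against 12.03, 12.07, 11.98 and 11.91 in WT_CD3, with overlap and a difference of 0.14 ± 0.10 (limma, adjusted p = 0.348). Its immune counterpart Psmb10 read 9.43, 9.24, 8.64 and 8.54 in KO_CD3CD28, against 9.31, 9.06, 9.00 and 8.44 in KO_CD3. Those ranges covered each other, and the difference was 0.01 ± 0.26 (limma, adjusted p = 0.983). In WT cells Psmb10 read 9.46, 9.37, 9.44 and 8.24 in WT_CD3CD28, against 9.65, 9.37, 9.30 and 9.26 in WT_CD3. The difference there was -0.26 ± 0.26 (limma, adjusted p = 0.503), and it was 0.03 without WT_CD3CD28 replicate 4.

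Psmb5 carries the chymotrypsin-like site, and Psmb8 replaces it. Psmb5 read 12.03, 11.93, 11.30 and 11.52 in KO_CD3CD28, against 11.66, 11.37, 11.40 and 10.68 in KO_CD3, and 11.98, 11.94, 11.89 and 10.86 in WT_CD3CD28, against 11.86, 11.83, 11.73 and 11.64 in WT_CD3. Both pairs of groups overlapped, at differences of 0.42 ± 0.24 in KO cells and -0.10 ± 0.24 in WT cells (limma, adjusted p = 0.176 and 0.816). Psmb8 read 10.18, 10.09, 10.07 and 10.10 in KO_CD3CD28, against 9.87, 9.76, 10.11 and 9.88 in KO_CD3, where a single KO_CD3 array lay among those of KO_CD3CD28. Its difference in KO cells was 0.21 ± 0.09 (limma, adjusted p = 0.0742). In WT cells it read 10.32, 10.23, 10.50 and 10.23 in WT_CD3CD28, against 10.16, 10.00, 10.18 and 10.22 in WT_CD3. These groups did not overlap, as 18.7% of all tested genes did not in KO cells and 16.2% in WT cells in the upward direction, and the difference of 0.18 ± 0.09 was not called (limma, adjusted p = 0.143).

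Psmb6 carries the caspase-like site, and Psmb9 replaces it. Psmb6 differed by 0.42 ± 0.25 in KO cells and by -0.02 ± 0.25 in WT cells, where 3 arrays of WT_CD3CD28 lay at 11.99 to 12.04 and replicate 4 at 10.85. Psmb9 differed by 0.28 ± 0.20 in KO cells and by -0.09 ± 0.20 in WT cells. It read 10.90, 10.76, 10.77 and 10.84 in KO_CD3CD28, against 10.61, 10.43, 10.94 and 10.19 in KO_CD3, and in WT_CD3CD28 it ranged from 10.10 to 11.32, around the 10.74 to 11.16 of WT_CD3. The adjusted p of these 4 differences ran from 0.192 to 0.97. With the replicate number as a block, Psmb5, Psmb6 and Psmb8 were called higher in KO cells at unchanged differences (adjusted p = 0.0409, 0.0443 and 0.0385), in a fit that called 23.3% of all tested genes higher. Without WT_CD3CD28 replicate 4, the WT differences of Psmb5, Psmb6 and Psmb9 were 0.17, 0.27 and 0.16, and none was called.

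**Figure D4:**
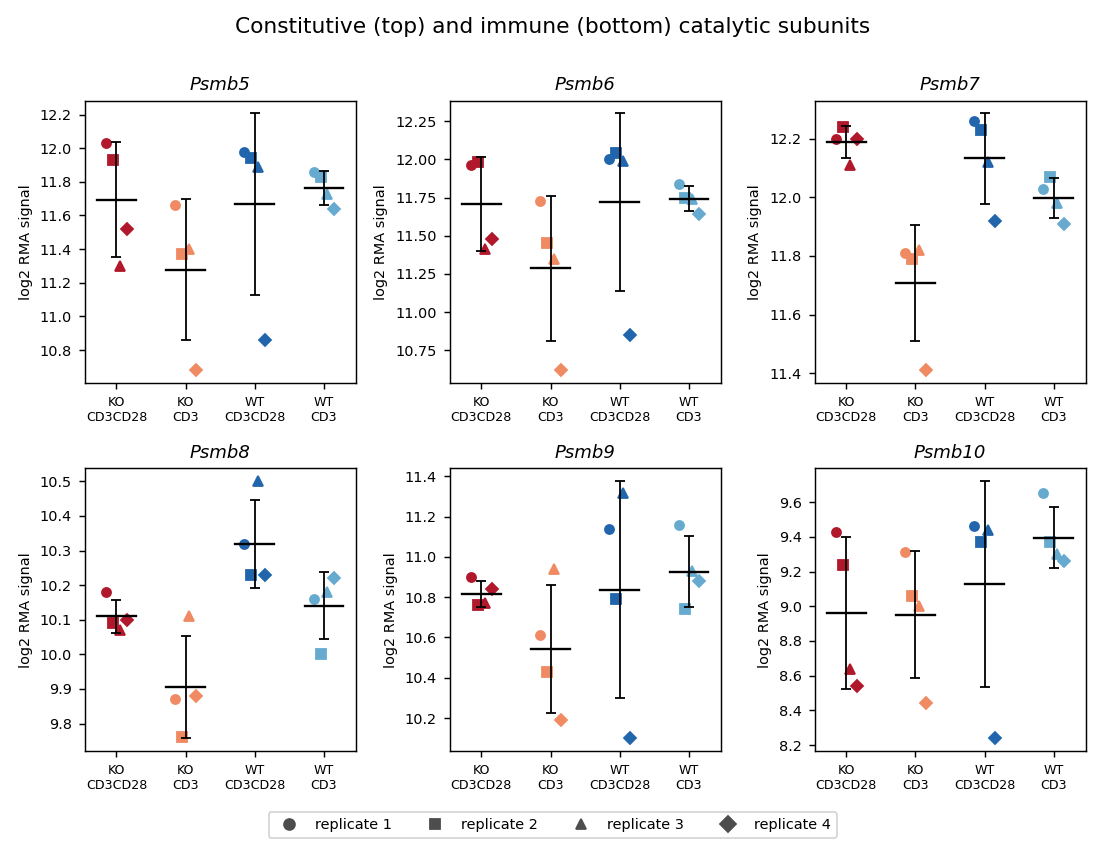
Log2 signal of the constitutive cutting subunits (top) and of the immune subunit that replaces each (bottom) on the 16 arrays, with KO_CD3CD28, KO_CD3, WT_CD3CD28 and WT_CD3 from left to right; bars are the group mean and SD (n = 4). Psmb7 separates KO_CD3CD28 (12.11 to 12.24) from KO_CD3 (11.41 to 11.82), and replicate 4 of WT_CD3CD28 is the lowest of its group in Psmb5, Psmb6, Psmb7, Psmb9 and Psmb10.

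The balance between the 2 sets of cutting subunits was read on each array as the mean of the 3 immune genes minus the mean of the 3 constitutive genes. Since probes differ in brightness, its change between groups can be read, and its level cannot. With anti-CD28 the balance differed by -0.28 in KO cells and by -0.06 in WT cells, on SDs between replicates of 0.10 in KO_CD3CD28, 0.20 in KO_CD3, 0.15 in WT_CD3CD28 and 0.12 in WT_CD3 (n = 4 each). The KO change came to -0.34 to -0.20 and the WT change to -0.12 to 0 as each array was left out in turn. Between genotypes the balance differed by -0.16 with anti-CD28 and by 0.06 under anti-CD3 alone. These came to -0.22 to -0.10 and to -0.02 to 0.12 as each array was left out, at -0.10 without WT_CD3CD28 replicate 3 and -0.02 without KO_CD3 replicate 4.

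Among the activators, which open the gate of the core without the 19S cap, Psme3 had the largest difference. Psme3, also known as PA28 gamma and found mainly in the nucleus, read 11.74, 11.75, 11.48 and 11.54 in KO_CD3CD28, against 10.94, 10.90, 10.96 and 10.91 in KO_CD3. The groups were apart by 0.70 ± 0.08 (limma, adjusted p = 2.72e-06). In WT cells it read 11.68, 11.70, 11.52 and 11.62 in WT_CD3CD28, against 11.21, 11.21, 11.29 and 11.09 in WT_CD3, with no overlap and a difference of 0.43 ± 0.08 (limma, adjusted p = 0.000527). Psme1 and Psme2, the interferon-inducible pair that forms the other PA28 ring, rose by 0.29 and 0.58 in KO cells (limma, adjusted p = 0.0169 and 0.00481). In WT cells Psme2 rose by 0.49 (limma, adjusted p = 0.0182) and Psme1 stood at 0.10 (limma, adjusted p = 0.443). Psme4, a large single-chain activator, differed by 0.23 and 0.25, and Psmf1, an inhibitor of the core, by 0.19 and 0.13, in KO and WT cells (limma, adjusted p from 0.0641 to 0.521).

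The remaining 4 members are no part of the standard particle. Psmc3ip, a recombination protein named for binding Psmc3, had the largest difference of all 50 genes. It read 9.50, 9.43, 9.08 and 9.15 in KO_CD3CD28, against 7.69, 7.46, 7.58 and 7.98 in KO_CD3, and the difference was 1.61 ± 0.15, or 3.05-fold (limma, adjusted p = 2.79e-07). In WT cells it read 9.58, 9.54, 9.43 and 9.05 in WT_CD3CD28, against 8.16, 8.08, 8.64 and 8.37 in WT_CD3, and the difference was 1.09 ± 0.15 (limma, adjusted p = 3.4e-05). Psme3ip1 differed by 0.10 and 0.07 and was not called in either genotype. The thymic subunit Psmb11 fell by 0.40 in KO cells (limma, adjusted p = 0.00235) and the testis subunit Psma8 rose by 0.33 (limma, adjusted p = 0.0458), a call lost in 12 alternative settings. Both lay near the array background, between the 17.6th and the 41.3rd percentile of the arrays, while the other 48 members reached at least the 60.2nd on every array.

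Of the proteins that work with the proteasome, 19 of 30 listed genes could be tested. In KO cells 12 of them rose and none fell, and in WT cells 9 rose and none fell, where 20.4% and 16% of all tested genes rose. The medians were 0.41 and 0.17, against -0.063 and -0.030 for all tested genes. Uchl5, a deubiquitinase of the regulator, rose by 1.11 ± 0.10 in KO cells and by 0.70 ± 0.10 in WT cells (limma, adjusted p = 2.2e-07 and 5.61e-05). Txnl1, a thioredoxin-like protein bound to the regulator, rose by 0.80 and 0.52, the scaffold Ecpas by 0.61 and 0.50, and the ubiquitin shuttles Rad23b and Ubqln1 by 0.76 and 0.49 and by 0.45 and 0.38 in KO and WT cells. Pomp, the chaperone of the beta ring, rose by 0.43 in KO cells (limma, adjusted p = 0.000506) and stood at 0.12 in WT cells (adjusted p = 0.315). Nfe2l1, the factor that induces proteasome genes when the protease is blocked, stood at 0.04 and -0.03 and was not called.

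Genes of the MHC class I pathway, to which the immunoproteasome delivers peptides, were listed together with genes of interferon-gamma signalling. Of 15 tested genes 2 rose and 5 fell in KO cells, where 20.4% of all tested genes rose and 17.6% fell. In WT cells 2 rose and 4 fell, where 16% of all tested genes rose and 13% fell. The medians were -0.20 and -0.03, against -0.063 and -0.030 for all tested genes. Ifngr1, the chain of the interferon-gamma receptor that binds its ligand, fell by 1.42 ± 0.17 in KO cells and by 1.27 ± 0.17 in WT cells (limma, adjusted p = 4.41e-06 and 2.61e-05). Tap2, a subunit of the peptide transporter, differed by -0.44 and -0.42, the loading chaperone Tapbp by -0.44 and -0.64, and Nlrc5, the transactivator of class I genes, by -0.44 and -0.30, in KO and WT cells, and all of these were called lower. Averaging all probes of Nlrc5 gave -0.05 in both, and both calls were lost. Canx, a folding chaperone of the endoplasmic reticulum, rose by 0.30 and 0.21. Ifng itself stood at 0.49 in KO cells (limma, adjusted p = 0.0756) and rose by 0.69 in WT cells (adjusted p = 0.0205), and Irf1, an interferon-induced factor, was not called, at 0.14 and 0.24.

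Markers of other cells also differed with anti-CD28. The 2 CD8 T cell markers, Cd8a and Cd8b1, rose in both genotypes; their mean level per array ran from 8.34 to 8.64 in KO_CD3CD28, against 7.80 to 7.97 in KO_CD3, and from 8.41 to 8.75 in WT_CD3CD28, against 7.70 to 7.96 in WT_CD3. Of 4 NK cell markers, Nkg7 and Gzmb, which activated T cells also express, rose in both, and Ncr1 and Klrb1c were too dim to test on these arrays. The mean of Nkg7 and Gzmb ran from 8.15 to 8.75 in KO_CD3CD28, against 5.96 to 6.83 in KO_CD3, and from 7.89 to 8.82 in WT_CD3CD28, against 6.03 to 7.57 in WT_CD3. Foxp3, the marker of regulatory T cells, rose by 0.55 in KO cells and stood at 0.24 in WT cells (limma, adjusted p = 0.0276 and 0.4). Of 4 tested B cell markers 2 fell in both genotypes, their mean running from 6.20 to 6.33 in KO_CD3CD28, against 6.37 to 6.94 in KO_CD3, and from 6.04 to 6.32 in WT_CD3CD28, against 6.68 to 6.74 in WT_CD3. Of 8 myeloid and dendritic markers 3 fell in KO cells and 1 in WT cells, with a mean of 5.85 to 5.95 in KO_CD3CD28, against 6.12 to 6.49 in KO_CD3, and 5.88 to 5.99 in WT_CD3CD28, against 6.14 to 6.25 in WT_CD3. Cd3d, Cd3e and Cd3g fell in both genotypes and Cd4 was not called. Of all tested genes 20.4% rose and 17.6% fell in KO cells, and 16% rose and 13% fell in WT cells. The part of such cells in the proteasome differences was not tested.

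The genotypes were then compared under each stimulus. With anti-CD28, 0 of the 50 genes was called (limma, adjusted p under 0.05), 1 had an unadjusted p under 0.05, and 0.00609% of all tested genes, which is Bhlhe40 alone, was called. At an unadjusted p under 0.05, 2.75% of all tested genes lay higher in KO_CD3CD28 and 0.572% lower. Under anti-CD3 alone 0 were called by limma in the fit without a replicate block, and 22 had an unadjusted p under 0.05. Calls with the block are given below. In the fit without it 1.03% of all tested genes were called and, at an unadjusted p under 0.05, 11.3% lay lower and 13% higher. The median difference of the 50 genes was 0.03 with anti-CD28, against 0.016 for all tested genes, with 31 of 50 above 0 where 55.6% of all tested genes were, and -0.24 under anti-CD3 alone, against 0.033. The direction with anti-CD28 was not stable, since 17 of 50 were above 0 at a median of -0.03 without WT_CD3CD28 replicate 4, and 22 of 50 at a median of -0.02 with each array centred on its median. Under anti-CD3 alone 48 of the 50 were below 0, where 44.6% of all tested genes were, and in 11 of them every KO_CD3 array lay below every WT_CD3 array, against 6.63% of all tested genes. All 31 subunits of the core and the regulator were below 0, at -0.49 to -0.02.

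The count of calls under anti-CD3 alone changed with the handling of the replicate numbers. With the number as a block, 10 genes were called lower and 1 higher, where 6.56% of all tested genes were called lower and 5.34% higher. The 10 were Psma7, Psmb7, Psmc3, Psmd2, Psmd3, Psmd7, Psmd8, Psme1, Psme3 and Psmc3ip, and the 1 was Psmb11. Within replicates 1 and 2 the median was -0.27, with 9 genes called lower and 1 higher, and within replicates 3 and 4 it was -0.15, with none called and 38 of 50 below 0. These counts are given without the share of all tested genes called in the same subsets, so they are not read as a result about these genes. Quantile normalization of the arrays gave a median of -0.14 with 42 of 50 below 0.

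Psmc3ip came closest to a call between genotypes under anti-CD3 alone. The KO_CD3 arrays, at 7.69, 7.46, 7.58 and 7.98, all lay below the WT_CD3 arrays, at 8.16, 8.08, 8.64 and 8.37, by a difference of -0.63 ± 0.15 (limma, adjusted p = 0.0518; 0.0235 with the replicate block). Psmb11 lay higher in KO_CD3, by 0.38 ± 0.09 (limma, adjusted p = 0.0582; 0.0232 with the block), and its arrays read 6.38, 6.28, 6.05 and 6.54 in KO_CD3, against 5.80, 6.04, 5.99 and 5.91 in WT_CD3, where 8.06% of all tested genes lay wholly higher. Psme3 differed by -0.27 ± 0.08 with no overlap, since KO_CD3 ranged from 10.90 to 10.96 and WT_CD3 from 11.09 to 11.29 (limma, adjusted p = 0.0891; 0.0356 with the block). Among the cutting subunits the differences under anti-CD3 alone ran from -0.49 for Psmb5 to -0.24 for Psmb8, and under both antibodies from -0.21 for Psmb8 to 0.06 for Psmb7. Without WT_CD3CD28 replicate 4 the range under both antibodies ran from -0.46 for Psmb10 to -0.02 for Psmb7, and none was called (limma, adjusted p from 0.704 to 0.971). Psmb8 in KO_CD3CD28, at 10.07 to 10.18, lay wholly below WT_CD3CD28, at 10.23 to 10.50, by -0.21 (unadjusted p = 0.0289, limma adjusted p = 0.999), where 0.645% of all tested genes lay wholly lower.

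**Figure D5:**
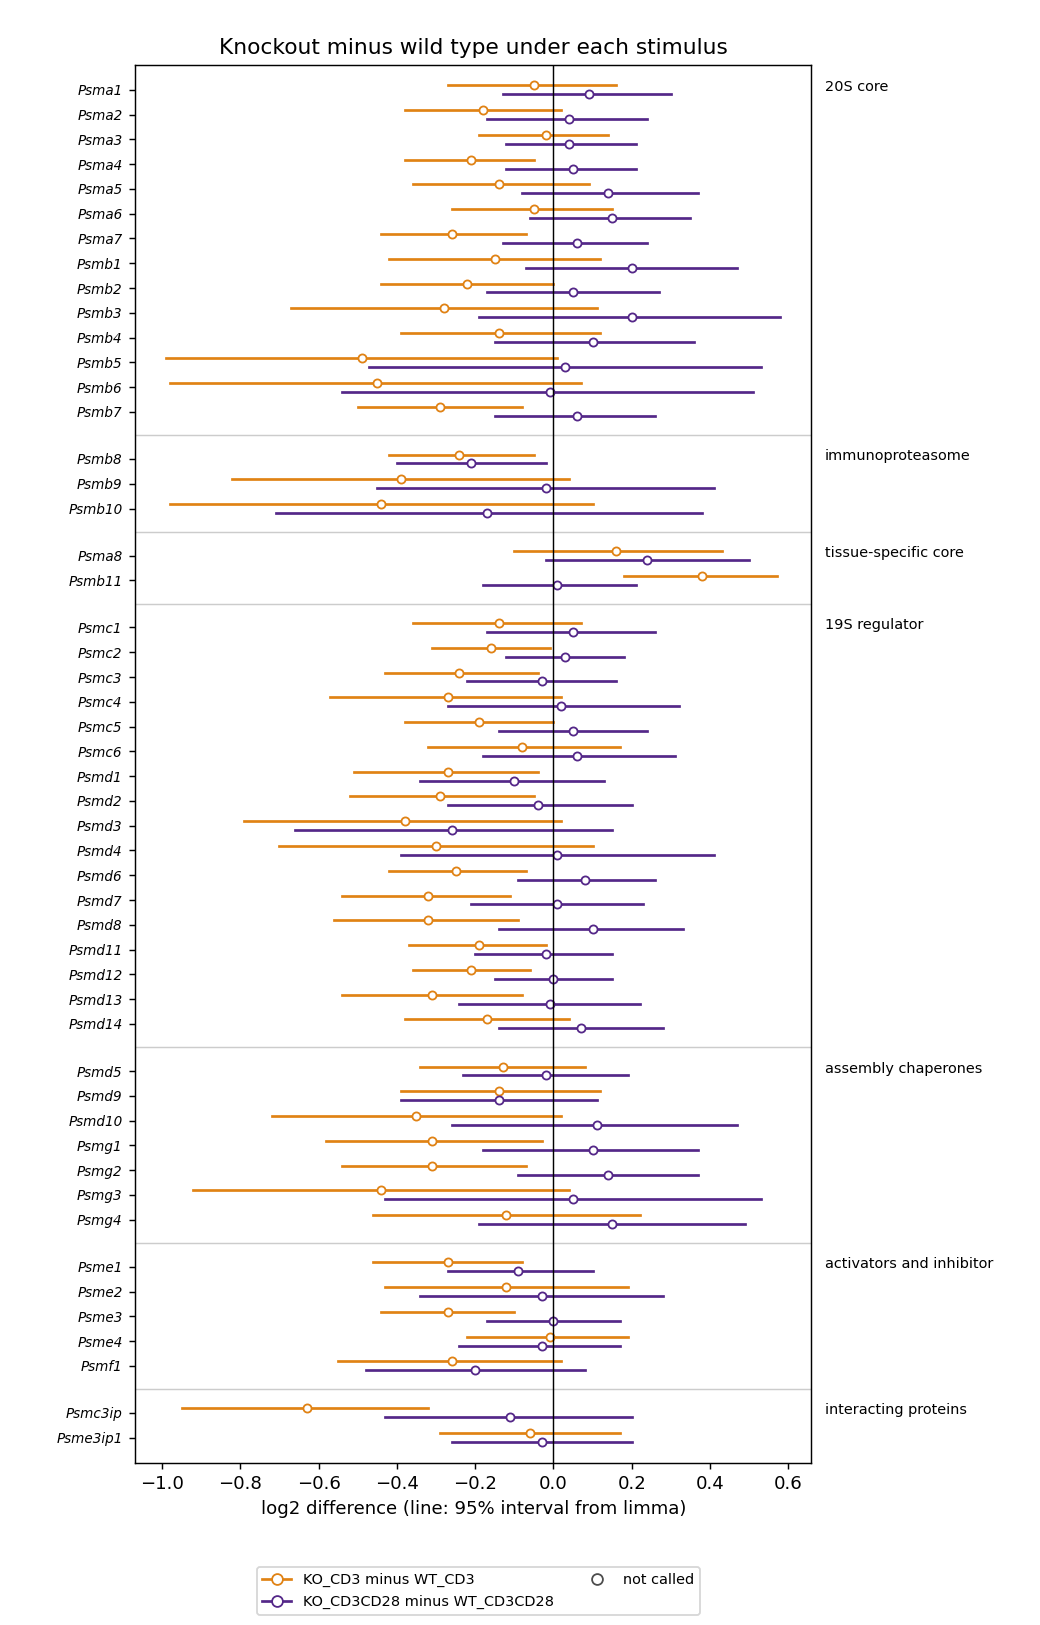
Log2 difference between KO and WT cells for each of the 50 genes under anti-CD3 alone (orange) and under anti-CD3 plus anti-CD28 (purple), with 95% intervals from limma. No point has an adjusted p under 0.05 in the fit drawn, which leaves the replicate numbers out. Calls with the replicate number as a block are given in the text. In the fit drawn 48 orange points lie below 0 and 31 purple points lie above it (17 without WT_CD3CD28 replicate 4).

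The difference between the genotypes in their response to anti-CD28 was tested as an interaction. By limma 0 of the 50 genes was called, and 0% of all tested genes, and 11 members had an unadjusted p under 0.05, where 3.22% of all tested genes had one in the positive direction and 2.06% in the negative. The response was the larger in KO cells for 47 of the 50 genes, against 50.3% of all tested genes, with a median interaction of 0.25, against 0.001. Psmg2 had the smallest p, at an interaction of 0.45 (95% interval 0.12 to 0.78, unadjusted p = 0.0108, limma adjusted p = 0.905). Psmd6, a subunit of the regulator's lid, followed at 0.33 (unadjusted p = 0.0125), and Psmb11 at -0.36 (unadjusted p = 0.0131). Without WT_CD3CD28 replicate 4 the response was the larger in KO cells for 42 of 50 genes, with a median of 0.17. The interaction uses the same KO_CD3 and WT_CD3 arrays as the test between genotypes under anti-CD3 alone, so the 2 sets of values are not independent.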

How the data were processed

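RNA from 16 samples was hybridised to 1-colour arrays. The deposited values are log2 signals, which the authors made by RMA, per the submitters' processing notes, and no further scaling was applied. The sources used here name no genome build for the array. Of 35556 probes, 21789 carry a single gene symbol. A probe was kept where 4 or more arrays held it above their own 25th percentile, which left 17930 of these probes and 16427 genes, each represented by its brightest probe. Differences were fitted with limma 3.58.1 under R 4.3.3 on all 16 arrays with a mean per group (12 residual degrees of freedom, 4.92 prior), and p-values were adjusted by Benjamini-Hochberg over all tested genes at a threshold of 0.05. Groups were taken from the sample titles, with 4 arrays each, and that number limits the precision. Array medians ran from 6.64 to 6.97 and were not level across the groups. They were 6.87 to 6.97 in KO_CD3 and 6.80 to 6.85 in WT_CD3. With anti-CD28 they were 6.73 to 6.81 in KO_CD3CD28 and 6.64 to 6.81 in WT_CD3CD28. The part of this shift in the differences of the proteasome genes was not tested. Arrays of 1 group correlated at 0.97 to 0.995.

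The labels share replicate numbers 1 to 4 across the groups. Deviations from the group means correlated between same-numbered samples at 0.16 to 0.59 over the 4 comparisons, above 0.1 in each pair. On this check of the data, and not on a statement in the labels, the numbers were taken to pair the samples. Samples with different numbers were not compared. The split of replicates 1 and 2 from 3 and 4 can by itself give positive values here, so pairing number by number is not shown. The fit with a mean per group leaves the replicate numbers out. Its counts of calls, above all those between genotypes under anti-CD3 alone, hold for an unpaired fit. The fit with the replicate number as a block was an alternative, as were quantile normalization, median centring, other filters on dim probes, the mean of a gene's probes, a trended robust variance, array weights, subsets of replicates and leaving out each array.

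The genes named in the text are the cutting subunits, activators, inhibitor and Psmg chaperones, the 4 called genes with the largest rise and fall in each comparison, up to 8 genes called between genotypes, up to 4 called genes of each gene list, and Bhlhe40. Other members were named after their values were seen. The members and lists were chosen with earlier results of these data known. Upstream windows and gene positions are from RefSeq (GRCm38.p6), and motifs were searched on both strands. Figures were drawn with matplotlib 3.10.9 and tables with pandas 2.3.3 (numpy 2.4.6, Python 3.11.15). The fit was tested on simulated data.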

Additional observations from a re-analysis of the deposited data

Results flagged for a closer look

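In 10 of 200 sets of 4 arrays (50 genes by 4 groups), 1 array lay so far from the others that the gap to its neighbour, divided by the whole range, passed Dixon's 95% critical value for 4 samples, and chance gives about 1 in 20. WT_CD3CD28 replicate 4 gave 6 of the 10, each time as the lowest array. For the cutting subunits it read 10.86 for Psmb5, where the others lay at 11.89 to 11.98 (ratio 0.920), 10.85 for Psmb6, where they lay at 11.99 to 12.04 (ratio 0.958), and 8.24 for Psmb10, where they lay at 9.37 to 9.46 (ratio 0.926). It also read 11.08 for the core subunit Psmb2, against 11.46 to 11.49 (ratio 0.927), 11.85 for the ATPase Psmc5, against 12.14 to 12.19 (ratio 0.853), and 8.94 for the ubiquitin receptor Psmd4, against 9.71 to 9.83 (ratio 0.865).

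The other 4 sets lay in 3 groups. WT_CD3 replicate 4 read 11.61 for the alpha subunit Psma7, where the others lay at 11.82 to 11.84 (ratio 0.913), and 8.71 for Psmd3, where they lay at 8.91 to 8.93 (ratio 0.909). KO_CD3 replicate 4 read 11.41 for Psmb7, where the others lay at 11.79 to 11.82 (ratio 0.927). KO_CD3CD28 replicate 2 read 5.46 for the dim Psma8, where the others lay at 5.77 to 5.82 (ratio 0.861).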

How the results depend on the processing

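The counts of called genes were recomputed under 26 alternatives, and no difference of a called gene changed sign. Psma8 and Psmb11 were tested in 25 of them. The balance of cutting subunits was not recomputed for the trended robust variance, the array weights or the replicate block. The count of genes called with anti-CD28 in KO cells, 38, was 19 with replicates 3 and 4 alone, against 44 higher and 1 lower with replicates 1 and 2 alone, and 34 to 41 when each array was left out in turn, and 18 of the 38 genes kept their call in every setting. In WT cells the count, 22, was 34 with array weights, 8 with replicates 3 and 4 alone, 28 with replicates 1 and 2 alone and 18 to 27 when each array was left out, and 7 genes kept their call in every setting. Between genotypes under anti-CD3 alone the count, 0, was 1 with quantile normalization, 1 with median centring, 3 with array weights, 11 with the replicate block, 10 with replicates 1 and 2 alone and 0 to 2 when each array was left out, where 1 was called without KO_CD3 replicate 3, 1 without KO_CD3 replicate 4 and 2 without WT_CD3CD28 replicate 4. It was 0 between genotypes with anti-CD28 and in the interaction under all 26. The replicate block gave 42 genes higher and 1 lower in KO cells (Psmb1 gained at an adjusted p of 0.026, beside those given above) and 26 in WT cells (Psmb2 at 0.0262, Psmc3 at 0.0427, Psmc4 at 0.0179 and Psmg3), lost none of these calls and changed no other. The interaction of the balance of cutting subunits, -0.21, was -0.03 with replicates 1 and 2 alone and -0.40 with replicates 3 and 4 alone. Median centring moved the median of all tested genes in KO cells by 0.134, to 0.071, and that of the immunoproteasome subunits to 0.34, where Psmb8 was called (adjusted p = 0.0133). Quantile normalization put Psmb10 in KO cells at -0.11. The counts in this section stand without the share of all tested genes in each setting, so they are not read as results about these genes. The cause of these changes was not tested. The 4 arrays a group, and signals near background for Psma8 and Psmb11, limit what can be called.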
